A study of Mus musculus with 3 samples.

Results

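Ligands, receptors and co-receptors of Tgf-beta and activin were described on the arrays of EpH4-PR cells, together with Tgfbi, a matrix protein named for its induction by Tgf-beta. The 10 genes were chosen by name: Tgfb1, Tgfb2 and Tgfb3, Inhba and Inhbb, Tgfbr1, Tgfbr2, Tgfbr3, Eng and Tgfbi. Every probe that carried 1 of these names in the array annotation and was not a control was kept, which gave 13 probes of the 41174 on the array and 10 of its 30338 gene names. Inhbb, Tgfbr1 and Tgfbr2 each had 2 probes and the other genes had 1, and all 13 probes were read on all 3 arrays.

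EpH4-PR is a mouse mammary epithelial line, EpH4, that was stably transfected with the A form of the progesterone receptor (PR-A). Transfected clones were selected and kept in neomycin, and the number of clones behind these arrays is not given in the sources used here. The cells were grown in DMEM with 10% FBS to about 75% confluence, and the labels name no hormone treatment. Total RNA was labelled with Cy5 and hybridised to 3 Agilent whole mouse genome arrays, each against the same commercial mouse reference RNA (Stratagene mouse standard) in Cy3, with no dye swap. The arrays are numbered 1 to 3 in the labels, which do not say that they came from separate cultures, so that p-values measure only the spread between these samples, which may be technical. Pgr, the gene of the transfected receptor, had 2 probes, with mean log2 ratios of -0.11 and -0.19 and a signal well above background in EpH4-PR RNA on 1 array each, and whether they lie within the transfected sequence was not tested. Arrays of the empty vector line EpH4-EV were not analysed here. A ratio therefore places a transcript in 1 transfected line relative to a pool of mouse RNA, and does not measure what PR-A does.

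Tgf-beta and activin dimers are secreted and bind pairs of type 1 and type 2 serine/threonine kinase receptors. The type 2 receptor phosphorylates the type 1 receptor, which phosphorylates Smad2 and Smad3, and these enter the nucleus with Smad4. In the mammary gland Tgf-beta restrains epithelial growth and ductal branching, and activin and its inhibitors take part in ductal and alveolar growth.

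The promoters of the only members that passed the threshold used below, Inhbb on the higher side and Tgfbi on the lower side, are printed to show the sequence in front of each gene. Both are the 250 bases before the annotated start, read 5′ to 3′ along the gene, from RefSeq on build GRCm38.p6. Capitals mark CAGAC or its reverse complement GTCTG, the letters to which Smad3 and Smad4 can bind (Smad box). The Inhbb window is chr1:119422249-119422498 on the minus strand and the Tgfbi window is chr13:56609336-56609585 on the plus strand.
Inhbb: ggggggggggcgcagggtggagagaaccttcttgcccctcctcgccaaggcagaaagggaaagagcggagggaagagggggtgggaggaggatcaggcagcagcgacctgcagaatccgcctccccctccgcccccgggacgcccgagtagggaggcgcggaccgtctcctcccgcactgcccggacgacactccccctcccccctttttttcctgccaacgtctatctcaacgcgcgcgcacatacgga
Tgfbi: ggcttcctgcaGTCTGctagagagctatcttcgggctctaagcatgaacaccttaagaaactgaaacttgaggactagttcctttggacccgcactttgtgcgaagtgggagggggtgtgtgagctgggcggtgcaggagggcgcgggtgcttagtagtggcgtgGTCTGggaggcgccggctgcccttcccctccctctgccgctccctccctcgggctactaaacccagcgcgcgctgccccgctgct

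The Smad box was found at 2 places in the Tgfbi window and at none in the Inhbb window. Of all 32851 windows of this length in the table, 42.2% held it on at least 1 strand, as did 5 of the 9 windows of the 8 member genes with an entry. The hexamer AGAACA or TGTTCT, which steroid receptors such as PR can bind, was in 16.1% of all windows and in 0 of the 9 member windows. The bases were 68% G or C in the Inhbb window and 62.4% in the Tgfbi window. A match is a description of letters, and no match says only that these letters are not in this window. Tgfb3 and Tgfbr3 had no entry.

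The arrays held a signal for every member in EpH4-PR RNA, though a weak one for many. Each array had 43790 spots, and the scanner software marked between 29599 and 30937 probes as well above background in EpH4-PR RNA. All 13 member probes were well above background in EpH4-PR RNA on all 3 arrays, and 12 of them were so in both channels on all arrays. Their Cy5 intensities were also above the 95th percentile of the 314 negative control spots on each array. In the reference channel the negative control spots were brighter, with medians between 91.8 and 121 against a local background between 39 and 43, and 6 of the 13 probes lay above their 95th percentile on fewer than 3 arrays. With a normexp offset of 0 in the background correction, the mean log2 ratios of these 6 probes moved away from 0. Tgfb1 went from -0.25 to -0.50, and the dimmer Tgfbr1 probe from 0.16 to 0.56. The dimmer Tgfbr2 probe went from -0.63 to -1.07, and Tgfbr3 from 0.10 to 0.29. The dimmer Inhbb probe went from 0.09 to 0.18, and Eng from 0.39 to 0.72. In limma the adjusted p then exceeded 0.05 for Tgfb1 (0.0589) and the dimmer Tgfbr1 (0.0792) and Tgfbr2 (0.0852) probes.

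Markers of cell types were set beside the members, because the reference RNA is a pool. All 8 probes of epithelial markers were higher in EpH4-PR RNA by at least 1 log2 unit, from E-cadherin (Cdh1, log2 ratio 4.29 ± 0.10) and keratin 7 (Krt7, 3.99 ± 0.08) to Epcam (1.26 ± 0.02) and claudin 4 (Cldn4, 1.17 ± 0.07; mean ± SD, n = 3). Of 14 probes of mesenchymal markers 8 were lower and 0 higher, with vimentin (Vim) at -6.51 ± 0.11, Col3a1 at -5.10 ± 0.10, Thy1 at -3.07 ± 0.11 and Pdgfrb at -1.37 ± 0.05. These are the lowest probes of each gene. Other probes of Vim (-0.14), Col3a1 (-0.23 and -0.14) and Thy1 (-0.58) were not called. No endothelial probe was called, and 4 of those 8 probes were well above background in EpH4-PR RNA on none of the arrays, the median ratio being -0.04 and that of Esam -0.12 ± 0.08. Of 13 blood cell probes 4 were called lower and 0 higher (median -0.37), with Cd68 at -1.84 ± 0.14, Cd14 at -1.72 ± 0.07 and Cd3e at 0.11 ± 0.07. The labelled epithelial type was thus matched by its markers. In a bulk ratio against a pool, fewer cells of a type in the pool and less RNA per cell cannot be told apart.

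Among the members, Inhbb stood far above the reference RNA by 1 of its probes, Tgfbi stood below it, and the other probes lay within 1 log2 unit. A probe was called when its mean log2 ratio was at least 1 either way with a Benjamini-Hochberg adjusted p under 0.05 in limma over all probes. By this rule 1 of the 13 member probes was higher, against 2.26% of all probes, and 1 was lower, against 3.83% of all probes, so that 2 members were called where 6.10% of all probes were. At any size of ratio, 5 member probes were higher and 5 lower at adjusted p under 0.05, where 25.7% and 24.6% of all probes were. That looser rule was passed by 50.3% of all probes and by 62.9% of those with clear signal in both dyes, so that 10 of 13 is a share to be read against a high background. The median log2 ratio was 0.10 over the member probes and -0.01 over all probes. The share of higher calls among all called probes was 37.1%, and it became 90.9% when arrays were centred on their median in place of loess, under which 4 member probes were higher and 1 lower.

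**Figure D1:**
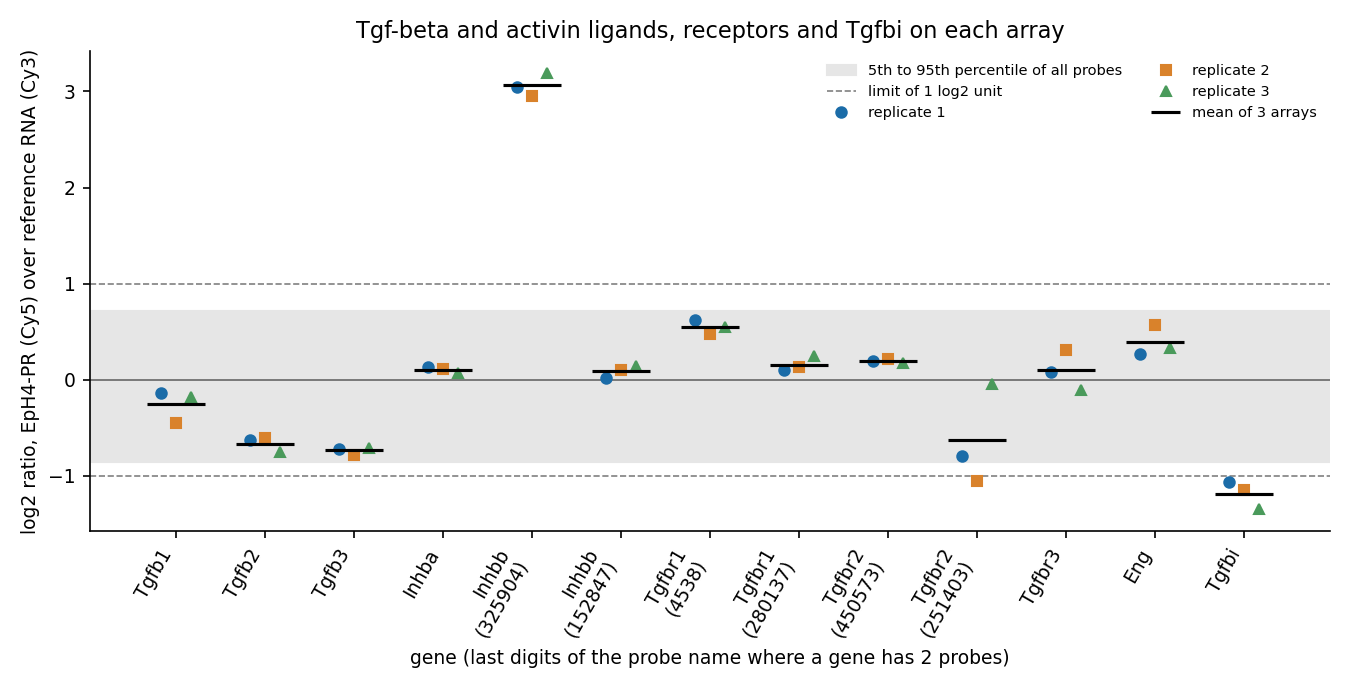
Log2 ratio of EpH4-PR RNA (Cy5) over reference RNA (Cy3) for the 13 member probes on each of the 3 arrays, with bars at the mean, a grey band from the 5th to the 95th percentile of all probes (-0.86 to 0.72) and dashed lines at the limit of 1 log2 unit. The first Inhbb probe lies near 3 on every array and Tgfbi below -1 on every array, while the second Tgfbr2 probe is spread from -1.05 to -0.04; under median centring Tgfb2 and Tgfb3 lie above 0 and not below it.

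The 3 Tgf-beta ligands were read at modest intensity and were not called. Tgfb1, the isoform made by most cell types, gave Cy5 intensities of 108, 113 and 91.9 on replicates 1, 2 and 3 beside negative control medians of 72.6, 74.1 and 57.3. Its log2 ratios were -0.14, -0.45 and -0.18, with a mean of -0.25 ± 0.17 (SE 0.07, adjusted p = 0.0396). All 3 ratios were below 0, replicate 2 lowest, but the adjusted p was 0.0518, 0.145 and 0.05 without replicates 1, 2 and 3, each time no longer under the threshold, and the reference spot exceeded the 95th percentile of negative controls on 1 array only.

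Tgfb2, a ligand that needs the co-receptor Tgfbr3 for strong binding, was 1.59-fold lower in EpH4-PR RNA, with log2 ratios of -0.63, -0.61 and -0.76 and a mean of -0.67 ± 0.08 (adjusted p = 0.000369), but 0.16 under median centring. Tgfb3, the third isoform, was 1.66-fold lower, at -0.72, -0.78 and -0.71 with a mean of -0.74 ± 0.04 (adjusted p = 0.000166), but 0.28 under median centring. The arrays gave nearly the same values for both genes, and the ranges of their ratios overlapped. Both spots were clear of the negative controls in both channels. Cy5 intensities were 295, 274 and 263 for Tgfb2 and 453, 422 and 471 for Tgfb3. The direction of these 2 ligands relative to the pool thus rested on the dye normalization.

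The activin subunits gave ratios on either side of the limit. Inhba encodes the beta A subunit, which forms activin A as a homodimer and inhibin A with the alpha subunit. Its Cy5 intensities were 847, 813 and 796 and its Cy3 intensities 366, 360 and 336, well clear of the controls. Its log2 ratios of 0.13, 0.11 and 0.07 had a mean of 0.10 ± 0.03, which did not pass the test (adjusted p = 0.0948), although the 3 values lay close together. Under median centring the mean was 1.21.

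Inhbb encodes the beta B subunit of activin B and inhibin B, and 1 of its probes gave the highest ratio of all members. Probe A_51_P325904 had Cy5 intensities of 3977, 3355 and 4006, between 45.3 and 69.96 times the median negative control spot, and Cy3 intensities of 229, 219 and 193. Log2 ratios were 3.05, 2.95 and 3.20, with a mean of 3.06 ± 0.12 (SE 0.06), which was 8.36-fold higher than the reference (adjusted p = 1.74e-05). By its ratio this probe ranked 16 of the 41174 probes, and its lowest array lay far above the limit of 1 log2 unit. The mean lay between 3.00 and 4.29 under all other settings, and between 3.00 and 3.12 without single arrays.

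The other Inhbb probe, A_52_P152847, did not share this ratio. It had Cy5 intensities of 192, 187 and 144 and log2 ratios of 0.02, 0.10 and 0.14, with a mean of 0.09 ± 0.06 (adjusted p = 0.184). By the scanner software's ratios the mean was 0.33 (adjusted p = 0.134) and under median centring 0.48 (adjusted p = 3.9e-05), still far from that of the first probe. The difference between the probes was 3.03, 2.85 and 3.05 on the 3 arrays, a mean of 2.98 ± 0.11, so that the disagreement was the same on each array. The probes were designed from different sequence records, neither of which was matched to a RefSeq accession here, and both kept the gene name of the array annotation. The call for Inhbb therefore rested on 1 of 2 probes, and which of them reads the gene's main transcript was not tested.

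**Figure D2:**
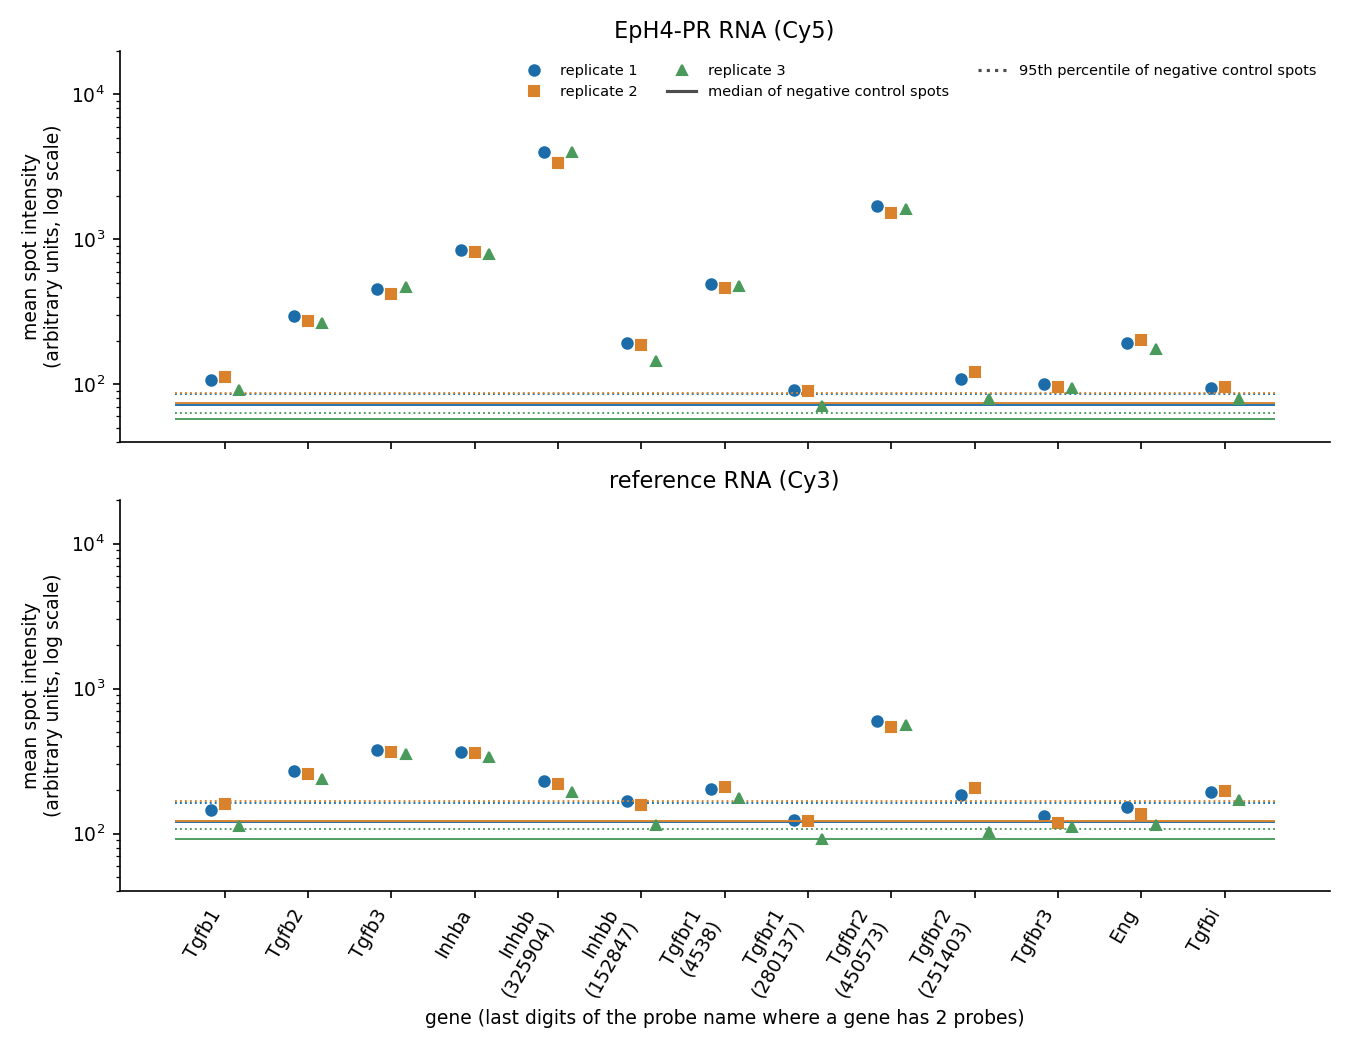
Mean spot intensity (arbitrary units, log scale) of the 13 member probes in EpH4-PR RNA (top) and in reference RNA (bottom) on each array, with the median (solid) and 95th percentile (dotted) of the negative control spots of the same array. Probe A_51_P325904 of Inhbb reached 3355 to 4006 in EpH4-PR RNA against 193 to 229 in the reference, while several probes in the reference panel lie on the control lines.

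The signalling receptors were close to the reference RNA. Tgfbr1 (Alk5), the type 1 receptor for Tgf-beta, was 1.46-fold higher by probe A_52_P4538, with log2 ratios of 0.62, 0.47 and 0.55 and a mean of 0.55 ± 0.07 (adjusted p = 0.000672). Its Cy5 intensities were 492, 461 and 474. The ratio was above 0 on all 3 arrays and stayed so under the other settings, between 0.51 and 1.43 over 14 of them.

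The second Tgfbr1 probe, A_51_P280137, was read close to the controls. Its Cy5 intensities of 91.7, 89.9 and 71.4 were just above the 95th percentile of negative controls (85.9, 87.4 and 62.9), and in the reference it was well above background on 1 array only. The log2 ratios of 0.10, 0.13 and 0.24 had a mean of 0.16 ± 0.08 (adjusted p = 0.0477), which turned to -0.07 under median centring and exceeded the threshold without single arrays, up to 0.152. The probes differed by 0.52, 0.34 and 0.31, or 0.39 ± 0.12, in the same direction on each array.

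Tgfbr2, the type 2 receptor that binds Tgf-beta first, was clear of the controls by 1 of its probes. Probe A_51_P450573 had Cy5 intensities of 1711, 1516 and 1627 and Cy3 intensities of 596, 545 and 561. Its log2 ratios were 0.20, 0.22 and 0.17, with a mean of 0.19 ± 0.02 (adjusted p = 0.0149), a small excess that passed the test with all arrays but not without replicate 1 (adjusted p = 0.0793) or without replicate 2 (adjusted p = 0.103), and that was 1.46 under median centring. The 3 arrays differed little for this probe.

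The other Tgfbr2 probe, A_52_P251403, comes from a different RefSeq transcript record of the gene and was the least even member. Cy5 intensities were 109, 122 and 79.3 and log2 ratios -0.79, -1.05 and -0.04. The mean was -0.63 ± 0.52 (adjusted p = 0.048), with replicate 3 near 0 and the other arrays well below it. Without replicate 1 the mean was -0.55 (adjusted p = 0.148) and without replicate 2 it was -0.42 (adjusted p = 0.166), while without replicate 3 it was -0.92 (adjusted p = 0.00124). The probes of Tgfbr2 lay 0.99, 1.27 and 0.22 apart, and no direction for the gene held over both of them.

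The co-receptors were read near the level of the controls in the reference. Tgfbr3 (betaglycan) presents ligand to Tgfbr2 and is a co-receptor for inhibin. Its Cy5 intensities were 101, 96.3 and 94.5, and its log2 ratios of 0.09, 0.31 and -0.10 had a mean of 0.10 ± 0.20 (adjusted p = 0.384). The ratios lay on both sides of 0 and the mean was -0.00800 without replicate 2, so no difference from the pool was detectable. Eng (endoglin), a co-receptor best known from endothelial cells, had Cy5 intensities of 193, 201 and 175, above the controls by 2.66 to 3.05 times their median. Its log2 ratios of 0.27, 0.57 and 0.33 had a mean of 0.39 ± 0.16, or 1.31-fold higher (adjusted p = 0.00882), and the mean stayed between 0.30 and 0.86 under the other settings, although by the methods' t-test the p was 0.0517 before adjustment. Beside Eng, which was itself not called, the endothelial markers Pecam1, Cdh5, Tek, Kdr, Esam, Tie1 and Emcn held 0 called probes of 8. At any size of ratio, 0 of those probes were higher and 1 was lower at adjusted p under 0.05 in limma. Only 2 of them were well above background in EpH4-PR RNA on all arrays.

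Tgfbi was the only member called lower. Its Cy5 intensities were 94.1, 95.8 and 78.7, which is 1.29 to 1.37 times the median negative control, and its Cy3 intensities 194, 197 and 169.8. The log2 ratios were -1.06, -1.15 and -1.35, a mean of -1.19 ± 0.15 (SE 0.07), or 2.28-fold lower than the reference (adjusted p = 0.000151). All 3 arrays were below -1, and the nearest value of another member was -1.05, for the second Tgfbr2 probe on replicate 2. The mean was -1.02 under median centring, -2.20 with a normexp offset of 0 and -2.54 by the log ratio of the scanner software, so the side of the limit held while the size did not. Mesenchymal markers were lower alongside it, as given above; their part in the Tgfbi ratio was not tested.

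Ordered by mean ratio, neighbouring member probes had ranges over the 3 arrays that did not overlap at 4 places. Inhbb by probe A_51_P325904 was alone at the top. Tgfbr1 by probe A_52_P4538 and Eng came next and overlapped each other. Tgfbr2 by probe A_51_P450573, the second Tgfbr1 probe, Inhba, Tgfbr3 and the second Inhbb probe followed, each overlapping its neighbour. Tgfb1, the second Tgfbr2 probe, Tgfb2 and Tgfb3 formed the next run of overlapping neighbours, and Tgfbi lay lowest. Beyond their neighbours, the wide range of Tgfbr3 also reached that of Eng, and the second Tgfbr2 probe that of Tgfbr3. These places are ratios to the pool and give no order of transcript amounts, since different probes hybridise differently.

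**Figure D3:**
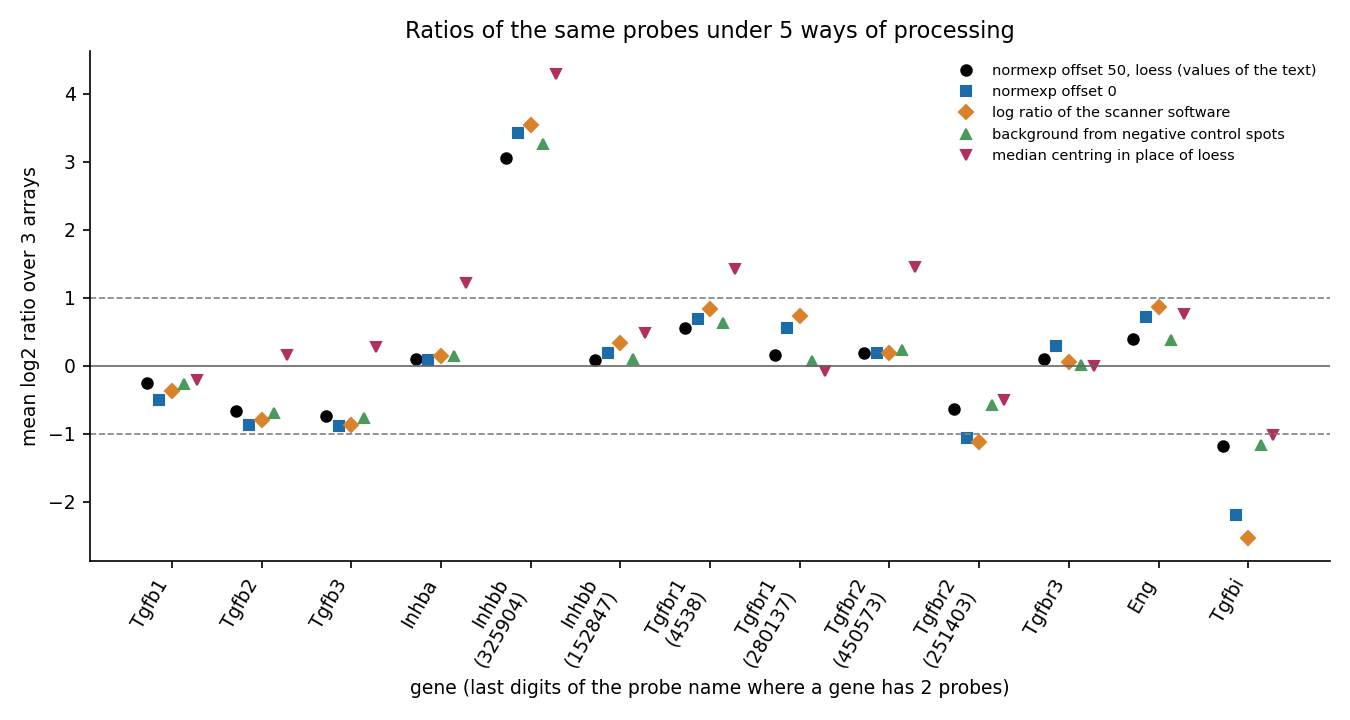
Mean log2 ratio of each member probe under 5 ways of processing the same spots, with dashed lines at the limit of 1 log2 unit. The first Inhbb probe stays at 3 or above and Tgfbi at -1.02 or below in each of these, while median centring (purple) moves Tgfb2 (0.16), Tgfb3 (0.28), Inhba (1.21) and the first Tgfbr1 (1.43) and Tgfbr2 (1.46) probes upward.

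Receptors of activin and of related ligands gave 0 called probes of 14, with a median of 0.00. Acvr1 (Alk2), a type 1 receptor for activin and Bmp, was at -0.23 ± 0.12 (adjusted p = 0.0285) and at 0.45 under median centring. Acvr1b (Alk4), the main type 1 receptor of activin, was at -0.77 ± 0.03 by probe A_52_P373893 (adjusted p = 0.000132), which turned to 0.06 under median centring. Its other probe, A_51_P402391, was at 0.10 ± 0.10 and turned to -0.13. The type 2 activin receptors were near 0, Acvr2a at 0.20 ± 0.21 and -0.08 ± 0.04 by probes that fell short of clear signal in 1 dye or both on some arrays, and Acvr2b at 0.02 ± 0.12 (adjusted p = 0.846), or -0.15 under median centring. Cy3 intensities of Acvr2b were 131, 124 and 102, below the 95th percentile of negative controls (162, 168 and 107). Its ratio near 0 therefore does not show equal amounts. Of the Bmp receptors, Bmpr2 was at 0.25 ± 0.20. Bmpr1a was at -0.60 ± 0.09 by 1 probe, or 0.49 under median centring, and at 0.24 ± 0.08 by its other one (adjusted p = 0.0151). With a normexp offset of 0 the receptors held 0 higher and 1 lower probe, and with the scanner software's ratios 1 higher and 0 lower.

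The Smads also gave 0 called probes of 14, with a median of 0.16, but 7 higher ones with a median of 0.81 under median centring. At any size, 7 were higher and 2 lower at adjusted p under 0.05, where 25.7% and 24.6% of all probes were. Clear signal in both dyes on all arrays was held by 13 of the 14 Smad probes. Of all probes with such signal, 62.9% passed this rule in either direction. Of the Smads that carry the Tgf-beta and activin signal, Smad2 was at 0.56 ± 0.07 (adjusted p = 0.000558) and Smad3 at 0.25 ± 0.01 and 0.28 ± 0.14 by its probes. Under median centring Smad2 was at 1.66, and of the Smad3 probes the first passed the limit of 1 log2 unit and the second was at 0.26. Smad4, the shared partner, was at -0.15 ± 0.05 and 0.46 ± 0.14, which both passed the limit on the higher side under median centring, the first at 1.16. The inhibitory Smad7 was at 0.07 ± 0.22 (adjusted p = 0.539), with replicate 3 below 0 and the others above it, and was called higher under median centring (adjusted p = 1.16e-05). Among the Smads of the Bmp branch Smad5 was highest (0.70 ± 0.08, with other probes at 0.29 and 0.45) and Smad1 lowest (-0.71 ± 0.12, with another probe at -0.08), while inhibitory Smad6 was at -0.07 ± 0.06. Median centring turned the lower Smad1 value to 0.46 and the Smad6 value to 0.18.

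Extracellular and intracellular inhibitors of the pathway were spread on both sides, with 3 probes higher and 2 lower of 20 and a median of 0.03, but with 8 higher and 1 lower and a median of 0.51 under median centring. Follistatin (Fst), which binds and blocks activin, gave log2 ratios of 1.75, 1.70 and 1.63 and Cy5 intensities of 831, 756 and 746. Its mean of 1.69 ± 0.06 was 3.23-fold higher than the reference (adjusted p = 2.59e-05), the highest of the list, and it was 2.22 with a normexp offset of 0, 2.51 by the scanner software's log ratio and 2.61 under median centring. Pmepa1, which holds Smad2 and Smad3 away from the receptor, was at 1.20 ± 0.15 (adjusted p = 0.000151), and the ubiquitin ligase Smurf2 at 1.14 ± 0.03 by the highest of its 3 probes.

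On the lower side of the inhibitors stood decorin (Dcn), a proteoglycan that binds Tgf-beta and is made mostly by fibroblasts, at -4.02 ± 0.18 by 1 probe (adjusted p = 1.62e-05), and Ski, a co-repressor of Smads, at -1.04 ± 0.12 by 1 probe (adjusted p = 0.000166). Another Dcn probe, not well above background in EpH4-PR RNA on any array, was at -0.19 ± 0.03. That Ski value was -0.25 under median centring and so not called, and the other Ski probes were at -0.70 ± 0.12 and 0.04 ± 0.28. Bambi, a decoy receptor without a kinase, was not well above background in EpH4-PR RNA on any array by either probe. By the probe that was well above background in the reference, the fitted ratio was 1.34-fold lower in EpH4-PR RNA (adjusted p = 0.00101). Its Cy3 intensities of 139, 141 and 106 lay below the 95th percentile of negative controls (162, 168 and 107). Cy5 intensities of 78.1, 82.0 and 61.1 also lay below it (85.9, 87.4 and 62.9). Neither a direction nor a minimum fold for Bambi is therefore shown. The other probe was not well above background in either channel on any array. A bound computed for the first probe equals its fitted ratio, because its own signal in EpH4-PR RNA lay above the lowest signal of measurable probes.

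Proteins that store or activate latent Tgf-beta included 2 higher and 4 lower probes of 24 (median 0.10), but 6 higher and 1 lower under median centring, and 10 of the 11 genes of the list had a probe. Thrombospondin 1 (Thbs1), which can activate latent Tgf-beta, was higher by both called probes, at 1.09 ± 0.06 (adjusted p = 6.52e-05) and 1.05 ± 0.16, while its other probes were at 0.75 ± 0.02 and 0.23 ± 0.03. Without replicate 2 the list held 1 higher probe in place of 2. The latent Tgf-beta binding proteins differed. Ltbp3 was at 0.55 ± 0.10 by 1 probe and at 0.18 ± 0.05 by a far brighter one. The dimmer Ltbp3 probe had Cy3 intensities of 146 and 156 on replicates 1 and 2, below the 95th percentile of negative controls (162 and 168). Ltbp1 was at -1.13 ± 0.11 and 0.10 ± 0.08 by its probes, Ltbp4 at -1.17 ± 0.05 (adjusted p = 5.21e-05) and Ltbp2 at -1.40 ± 0.02 (adjusted p = 2.97e-05). Another Ltbp2 probe was at 0.46 ± 0.20. Under median centring neither of the latter was called, Ltbp4 being at 0.01 and the lower Ltbp2 probe at -0.17. Fibrillin 1 (Fbn1), to which the binding proteins attach, was at least 6.03-fold lower by 1 probe that was not well above background in EpH4-PR RNA (adjusted p = 3.11e-05), a bound that again equals the fitted ratio. Its other probe was 1.53-fold lower (adjusted p = 0.000549).

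Probes of a list of target genes of Tgf-beta and activin lay mostly below the reference. Of 28 probes 14 were called lower and 1 higher, with a median of -1.10 beside -0.01 over all probes, and under median centring 6 were lower and 4 higher with a median of -0.21. Both probes of Id1 were among those called lower, at -1.23 ± 0.01 and -1.28 ± 0.02. Whether Tgf-beta raises or lowers Id1 in these cells was not tested. The lowest were Col1a1 (-5.03 ± 0.12, with other probes at -2.16 and -0.26) and the cell cycle inhibitor Cdkn2b (-2.76 ± 0.26). The highest were Pmepa1, given above, and Skil, a co-repressor that is itself induced by Tgf-beta (0.67 ± 0.24). Many genes of this list are also made by fibroblasts and smooth muscle, and 8 of 14 mesenchymal probes were lower in the same arrays; the part of such cells in the reference pool was not tested. Col1a1 stands in both lists, and Pmepa1, Skil, Smad7 and Ltbp2 stand also among the inhibitors, the Smads or the storage proteins.

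**Figure D4:**
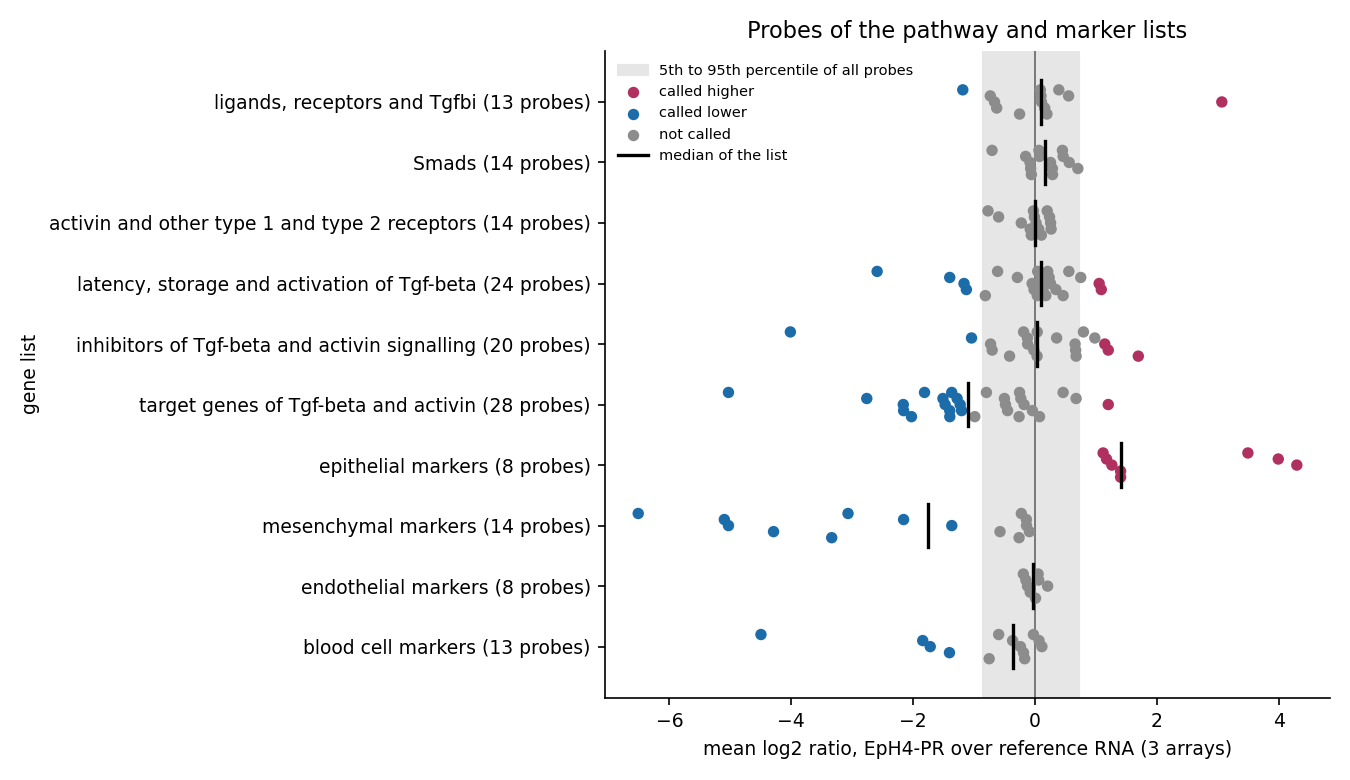
Mean log2 ratio of each probe of the members, the pathway lists and the marker lists over 3 arrays, coloured by the call, with bars at each list's median and a grey band from the 5th to the 95th percentile of all probes. Target genes are spread towards lower ratios (14 of 28 called lower; 6 lower and 4 higher under median centring) and all 8 epithelial probes are called higher. Smads and receptors hold 0 called probes with the values plotted, but 7 Smad probes are called higher under median centring.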

How the data were processed

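Total RNA of EpH4-PR cells (Cy5) and a mouse reference RNA (Cy3) were measured together on each of 3 arrays. The authors deposited the scanner output (Agilent Feature Extraction 8.1.1.1) with a mean, a median and a local background intensity of each spot in each channel, flags for background, saturation and outliers, and the log10 ratio between the dyes. The steps that followed in the study are not given in the sources used here beyond a citation. The authors also deposited a table of their own comparison (ratios, fold changes and p-values), which was not used. There were 0 unused columns of values per sample.

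Mean intensities were corrected for local background by normexp (offset 50) and normalized by loess within each array in limma 3.58.1 (R 4.3.3), with control spots at weight 0. Control spots were then left out, as were outlier spots, of which there were 150, 18 and 3 on the arrays in order, and spots of a probe averaged. Ratios of all 41174 probes were tested against 0 with lmFit and eBayes, with Benjamini-Hochberg adjustment over all of them, and a call needed an adjusted p under 0.05 with a mean log2 ratio of 1 or more in size. Errors are SDs over 3 arrays, whose number limits the precision. The median SD was 0.0854 over the 25721 probes that the scanner software marked as clear of background in Cy5 and Cy3 on every array. The fitting code was tested on simulated data.

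Members were matched by the gene name in the array annotation. RefSeq accessions matched 11 of the 13 member probes, and 0 further probes were found for these genes by accession. Every member probe is named. From each list the 2 highest and the 2 lowest genes with such signal are named, with Acvr1, Acvr1b, Acvr2a, Acvr2b, Smad2, Smad3, Smad4, Smad7, Fst and Bambi whatever their value; some genes that the rule names are not reported here. Other genes were added after their values were seen: Pgr, Smurf2, Fbn1, Ltbp1, Id1 and further probes of named genes. Members and lists were chosen with earlier results of these data known, and no list was tested. For a probe not well above background on any array of a channel, the fold is a bound against the higher of its own signal and the lowest signal of measurable probes. Promoter windows came from a RefSeq table (GRCm38.p6) and were searched on both strands in Python 3.11.15. Alternatives covered background correction, the scanner software's log ratio, centring, normalization between arrays, dim probes, outliers, spot summary, each array left out, an intensity trend and the methods' t-test.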

Additional observations from a re-analysis of the deposited data

How the results depend on the processing

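Over all probes, 932 higher and 1578 lower calls became 3125 and 3905 with a normexp offset of 0, 3616 and 3887 with ratios of the scanner software, and 7031 and 708 under median centring (share of higher calls 37.1%, 44.5%, 48.2% and 90.9%). Member probes called higher went from 1 to 4 under median centring (Inhbb, Inhba, Tgfbr1 and Tgfbr2) and stayed at 1 elsewhere, and the lower count was 1 under every setting. Without single arrays 933 to 953 probes were higher and 1585 to 1605 lower, with 1 member each way. Called probes of inhibitors went from 5 to 11 (offset 0), 10 (scanner software) and 9 (median centring, 8 higher and 1 lower), those of Smads from 0 to 2, 3 and 7, those of receptors from 0 to 1 in the first and second of these, and those of storage proteins from 6 to 11 by the scanner software. 

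Median centring reversed Tgfb2 (0.16), Tgfb3 (0.28), the second Tgfbr1 probe (-0.0710), Tgfbr3 (-0.00435), Acvr1 (0.45), Acvr1b (0.0594 and -0.13), Acvr2b (-0.15), the second Bambi probe (-0.17), Bmpr1a (0.49), Ltbp4 (0.00881), Smad1 (0.46), Smad4 (1.16) and Smad6 (0.18). Without single arrays Tgfbr3 ranged from -0.00800 (without replicate 2) to 0.20, Acvr2b from -0.0535 (without replicate 2) to 0.0585, the second Bambi probe from -0.00391 (without replicate 3) to 0.0730 and Smad7 from -0.0136 (without replicate 1) to 0.20. The cause was not tested. Of 182 member values under other settings, 143 kept their direction and side of the adjusted p threshold, 30 lost it, 4 gained it and 5 reversed, and of the values of 48 probes of named list genes 609 kept both. The methods' t-test gave 929 higher and 1577 lower probes before adjustment and 897 and 1547 after Benjamini-Hochberg. With background taken from negative control spots, chosen after seeing the data, Inhbb was at 3.27 and Tgfbi at -1.17 (adjusted p = 0.0297).

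No paired analysis was possible because the arrays form 1 group. Signal limits the members most in the reference channel, where 6 of 13 probes did not exceed the 95th percentile of negative controls on all arrays. Among all members Tgfbi, dim in EpH4-PR RNA, moved most in log2 units with the background correction, from -1.19 to -2.20 with an offset of 0 and -2.54 with ratios of the scanner software.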

Other observations

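Other secreted ligands of the superfamily, a list chosen after values of these arrays were seen, were mostly near the reference or too dim to place. Of 19 probes 0 were higher and 1 lower at the limit of 1 log2 unit, with a median log2 ratio of -0.10. The lower probe was that of Gdf15, a stress-induced ligand, at -1.38 ± 0.12 (SD over 3 arrays, adjusted p = 6.78e-05), and it was at -0.88 under median centring. Gdf1 followed at -0.91 ± 0.14. The highest were Lefty2 (0.49 ± 0.21) and Lefty1 (0.36 ± 0.26), secreted antagonists of nodal signalling. Cy3 intensities were 112, 112 and 94.0 for Lefty2 and 132, 151 and 102 for Lefty1. All of these lay below the 95th percentile of negative controls (162, 168 and 107). Inha, the alpha subunit with which the beta subunits form inhibin, was at -0.12 ± 0.07 and -0.13 ± 0.03 by its probes, neither of which passed the test (adjusted p = 0.0883 and 0.0579). Cy3 intensities of Inha, 126, 128 and 104 by the first probe and 138, 137 and 104 by the second, also lay below that percentile. Ratios near 0 therefore do not show equal amounts of Inha. Of the inhibin and activin subunits named here only Inhbb was called, by 1 of its probes.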
